A study of Mus musculus with 8 samples.

Results

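Uncoupling proteins and the enzymes that burn ketone bodies sit at the mitochondrial end of fat metabolism. The retinoid X receptor (RXR) is a nuclear receptor that pairs with the peroxisome proliferator-activated receptors (PPAR) and other partners to bind DNA. Its binding was described here around 7 genes: Ucp1, Ucp2 and Ucp3, the ketone enzyme genes Bdh1, Oxct1 and Acat1, and the hormone gene Fgf21. A peak was counted when its summit lay inside or within 50 kb of 1 of these genes in the RefSeq annotation of mm10. This gave 24 of the 23961 peaks in all lists, which formed 17 regions.

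The data were RXR chromatin immunoprecipitations with sequencing (ChIP-seq) of whole hearts of newborn mice at postnatal day 0. Hearts of wild-type mice (WT) stood against those of the edKO genotype, in which Rxra and Rxrb were deleted in cardiomyocytes, so that the other cells of the heart were not targeted. Rxrg, the remaining RXR gene, is not named as deleted. There were 2 hearts per genotype, labelled replicates 3 and 4, with an immunoprecipitate and an input library from every heart. Chromatin was fixed with DSG and FA in both genotypes. What drove the deletion, the strain and the sex were not given in the sources used here. Peak lists hold no transcript levels, so neither the deletion nor the makeup of the tissue could be checked. In whole hearts, fewer cells with bound RXR and less binding per cell cannot be told apart.

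Ketone bodies made by the liver reach the heart in the blood. In heart mitochondria BDH1 oxidises beta-hydroxybutyrate to acetoacetate, OXCT1 transfers coenzyme A to acetoacetate, and ACAT1 splits the product into acetyl-CoA. UCP1 is the heat-producing uncoupler of brown fat, UCP2 is found in many tissues, and UCP3 is found mainly in skeletal muscle, brown fat and heart. Ucp3 and Fgf21 are textbook PPAR targets, Fgf21 chiefly in the liver. PPAR and RXR bind together to direct repeats of AGGTCA with 1 base between the copies (DR1), and RXR with the liver X or thyroid hormone receptors to repeats with 4 bases between them (DR4).

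The 250 bases before the transcription starts of 3 of the genes are shown because they differ in these letters and in the position of the peaks. That of a neighbour, AW549877, is shown because the summits of both WT hearts lay in it. All come from RefSeq, build GRCm38.p6 (mm10), and read 5′ to 3′ along the gene. Ucp3 lies at chr7:100472741-100472990 (plus strand), Ucp1 at chr8:83290098-83290347 (plus strand), Oxct1 at chr15:4026178-4026427 (plus strand) and AW549877 at chr15:3995747-3995996 (minus strand). Capitals mark AGGTCA in Ucp3 and Ucp1, and in AW549877 the bases from the summit of WT replicate 3 to that of WT replicate 4.
Ucp3: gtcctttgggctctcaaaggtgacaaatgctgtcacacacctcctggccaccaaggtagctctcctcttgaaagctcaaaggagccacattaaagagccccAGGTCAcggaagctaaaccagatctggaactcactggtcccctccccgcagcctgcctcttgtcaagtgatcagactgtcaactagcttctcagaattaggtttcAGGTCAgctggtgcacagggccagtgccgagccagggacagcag
Ucp1: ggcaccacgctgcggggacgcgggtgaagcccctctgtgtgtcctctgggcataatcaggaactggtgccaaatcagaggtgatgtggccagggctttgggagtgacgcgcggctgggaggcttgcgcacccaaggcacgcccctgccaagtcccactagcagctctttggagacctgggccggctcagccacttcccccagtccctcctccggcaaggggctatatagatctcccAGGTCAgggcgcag
Oxct1: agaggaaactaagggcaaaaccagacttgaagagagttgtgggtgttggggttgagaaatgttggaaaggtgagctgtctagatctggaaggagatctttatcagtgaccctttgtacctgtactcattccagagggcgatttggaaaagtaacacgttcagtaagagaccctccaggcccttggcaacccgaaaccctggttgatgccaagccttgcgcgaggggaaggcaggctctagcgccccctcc
AW549877: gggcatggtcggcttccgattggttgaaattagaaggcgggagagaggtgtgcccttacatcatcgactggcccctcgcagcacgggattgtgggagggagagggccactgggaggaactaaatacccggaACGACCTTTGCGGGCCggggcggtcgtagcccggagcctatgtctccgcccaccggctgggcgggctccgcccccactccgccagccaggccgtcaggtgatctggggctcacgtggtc

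Promoter windows of 300 bases, from 250 before to 50 after a start, were listed for 6 of the 7 genes, and Bdh1 had 2 of them. AGGTCA, searched on both strands, occurred in the Ucp3 window at 149 and 44 bases before the start and in the Ucp1 window at 14 bases before it. It was not in the windows of Ucp2, Bdh1, Oxct1 or Fgf21. Of all 32851 promoter windows of this length, 16.3% hold it. No window of the members held an exact DR1 or DR4, both of which include AGGTCA. Of all windows, 0.0396% hold DR1 and 0.0152% hold DR4. The closest stretch to DR1 in the Ucp3 window was AGGTTTCAGGTCA, starting 51 bases before the transcription start, with 2 mismatches, and 3.86% of all windows have as good a match. The closest to DR4 was AGGTCACGGAAGCTAA, starting 149 bases before it, also with 2 mismatches, and 3.02% of all windows have as good a match. These were the closest matches among all the members' windows, so each share is that of a picked window. The other members' windows had 3 or 4 mismatches to DR1 and 3 to 5 to DR4. With at most 3 mismatches, 24.6% of all windows match DR1 and 21.9% match DR4. No peak of any heart lay over the Ucp3 window. The window of Oxct1 held the summit of a peak in WT replicate 3, and no member's window held a summit in another heart.

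The list of WT replicate 3 was the longest, with 19129 peaks, against 4697 for WT replicate 4. The edKO lists held 8 peaks (replicate 3) and 127 peaks (replicate 4). The lowest background of a list, recovered from the authors' peak statistics, ranged from 2.32 to 3.11 fragments per position and was higher in both edKO hearts than in both WT hearts. The smallest number of fragments at a called summit was 11 and 12 in the WT lists and 24 and 17 in the edKO lists.

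Each of the 7 genes had a peak of WT replicate 3 in its window, while Ucp2, Ucp3 and Oxct1 had a peak in WT replicate 4. WT replicate 3 had 17 peaks and WT replicate 4 had 6, each of which overlapped a peak of WT replicate 3. The list of edKO replicate 4 held 1 peak here, upstream of Ucp3, and that of edKO replicate 3 held none. The mean was 11.5 ± 7.78 peaks per WT heart (SD, n = 2) against 0.5 ± 0.707 per edKO heart (SD, n = 2). The genotypes did not overlap, with 6 as the smaller WT count and 1 as the larger edKO count. The two-sided exact permutation test gave p = 0.333, the smallest that 2 hearts against 2 allow. The lists themselves differ in length in the same direction. Per 1000 peaks of a list the numbers were 0.889 and 1.28 in WT replicates 3 and 4 against 0 and 7.87 in edKO replicates 3 and 4, so by share of the list the genotypes overlapped and edKO replicate 4, with its 1 peak of 127, was highest.

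A WT replicate 3 peak within 50 kb is common: 64.5% of the 21887 protein-coding genes had one, against 7 of 7 members. The share was 33.5% for WT replicate 4 (3 members), 1.52% for edKO replicate 4 (2 members, Ucp2 and Ucp3, through the same peak) and 0.119% for edKO replicate 3 (0 members). A region shared by both WT hearts, with an overlap of at least 1 bp, lay within 50 kb of 32.4% of protein-coding genes and of 3 of the 7 members. The median number of WT replicate 3 peaks per gene was 3 for the members and 1 over all genes. Ucp2, Ucp3 and Oxct1 had 5 each, a number that 15.7% of all genes reached. Ucp2 and Ucp3 are neighbours on chromosome 7, so 4 of the peaks of WT replicate 3 and all 3 of WT replicate 4 counted for both.

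**Figure D1:**
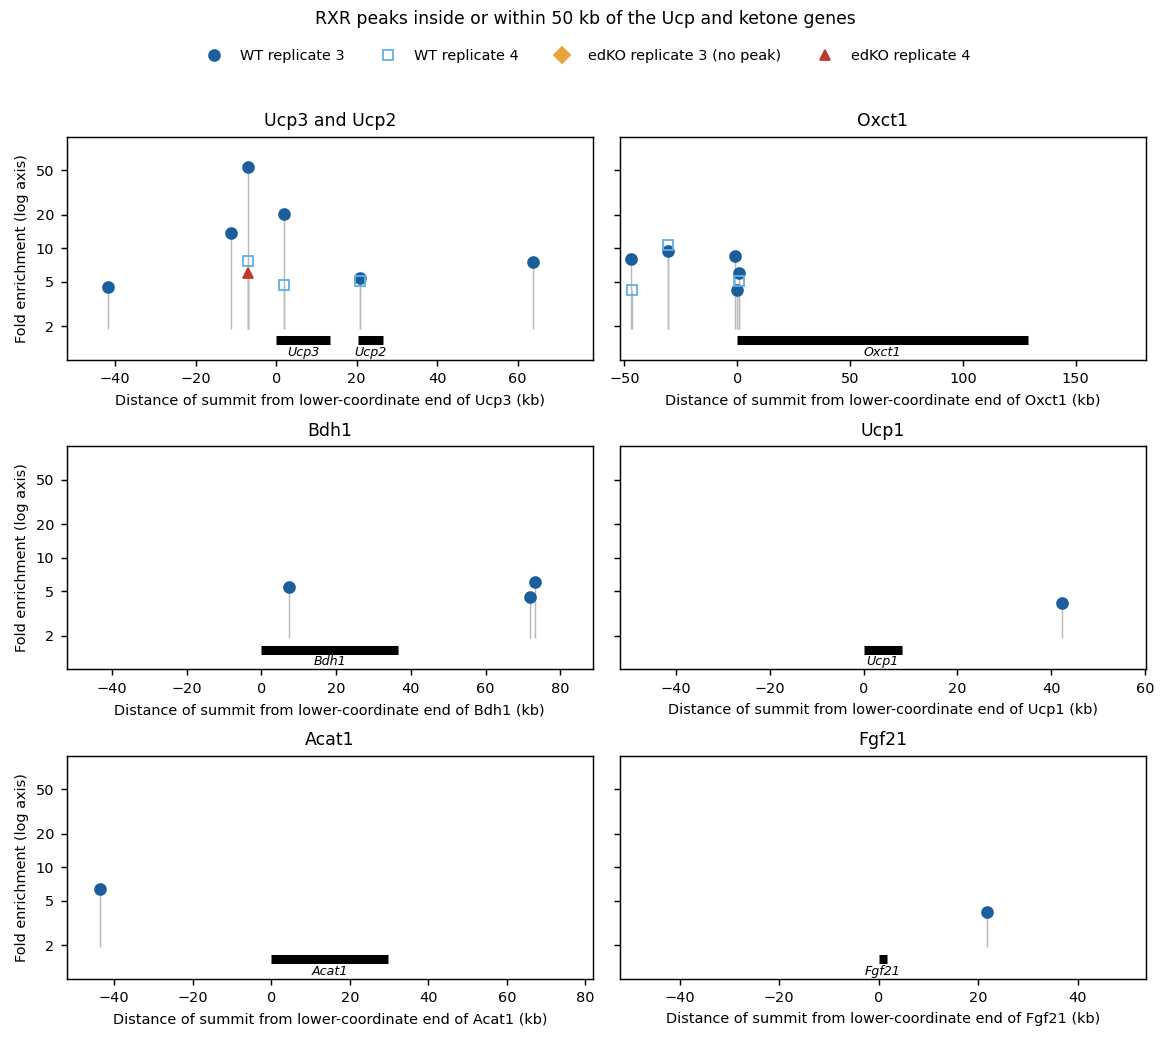
RXR peaks by heart around the members: the x axis is the distance of the summit from the end of the gene with the lower coordinate in kb, the y axis the authors' fold enrichment on a log axis, and black bars are the genes. The highest point, 53.5 in WT replicate 3, lies upstream of Ucp3, and all peaks of the Oxct1 window lie at or before the start of the gene's bar or just inside it.

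The region with the highest fold enrichment in WT replicate 3, and in the mean of the WT hearts, lay upstream of Ucp3, whose product is an inner-membrane carrier of muscle and heart mitochondria. It covered chromosome 7 from 100465525 to 100466236 (mm10), inside the neighbouring gene C2cd3, which encodes a centriole protein. The authors' fold enrichment, the ratio of the fragment pileup at the summit to the local background, reached 53.5 in WT replicate 3. It was 7.74 in WT replicate 4, where the region at AW549877 in the Oxct1 window was higher (10.7). Of the edKO hearts, replicate 4 had a peak with 6.04 and replicate 3 had no peak called. WT replicate 3 stood far above the other hearts on this scale, and the order was WT replicate 3, WT replicate 4, edKO replicate 4. The summits were 7109, 7123 and 7102 bp before Ucp3 in the same order, so the position was nearly the same in the 3 hearts. The WT mean was 30.6 ± 32.4 (SD, n = 2), an SD larger than the mean. By this mean the region ranked 47th of the 4342 shared regions. In its own list it ranked 11th of 19129 in WT replicate 3 and 1227th of 4697 in WT replicate 4.

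Fragments at the summit, which are not scaled for depth between hearts, gave the same order of the 3 hearts. There were 201 in WT replicate 3 (95% Poisson interval 174 to 231), 55 in WT replicate 4 (41.4 to 71.6) and 25 in edKO replicate 4 (16.2 to 36.9), and these intervals did not overlap. They cover counting error only. Local background was highest in WT replicate 4, at 6.0 fragments per position, against 2.77 for WT replicate 3 and 3.30 for edKO replicate 4. The 6.0 of WT replicate 4 was high for that heart, since 2.53% of its peaks in shared regions had at least as much and their median was 2.60. Set against the lowest background of each list in place of the local one, the fold enrichments were 58.0, 16.3 and 6.57. The ratio of WT replicate 3 to 4 was 6.92 over the local background and 3.55 over the lowest background, a comparison chosen after seeing the data. What else moves with the difference between these hearts was not tested.

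Another shared region lay inside Ucp3 itself, on chromosome 7 from 100474716 to 100475159. Its summit was 1927 bp after the transcription start in WT replicate 3 and 1898 bp after it in WT replicate 4. Fold enrichment was 20.2 in WT replicate 3 and 4.67 in WT replicate 4, from 79 and 15 fragments, and neither edKO list had a peak there. The 15 fragments of WT replicate 4 were fewer than at the weakest summit called in edKO replicate 3 (24) or edKO replicate 4 (17). The edKO lists thus do not show whether enrichment of that size was present. The region had a local background of 2.96 fragments per position in WT replicate 3 and 2.32 in WT replicate 4. What goes with the difference between the hearts was not tested here either. With a −log10 q of at least 5 required, the peak of WT replicate 4 no longer counted.

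A peak of WT replicate 3 without a partner lay between 100461529 and 100461924, also inside C2cd3 and 11282 bp before Ucp3. It had a fold enrichment of 13.8 and 51 fragments. Of the 1233 peaks of WT replicate 3 with at least this fold, 90 (7.3%) had no overlapping peak in WT replicate 4, against 77.1% of its whole list. A weaker peak of WT replicate 3 (4.51, 16 fragments) lay 41683 bp before Ucp3 and inside C2cd3 as well.

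The ratio of the WT hearts set the Ucp3 regions apart from the other members' regions. Over all 4342 shared regions the fold enrichment of WT replicate 3 divided by that of WT replicate 4 had a median of 1.49, with 0.757 and 3.02 as 5th and 95th percentiles. The region upstream of Ucp3, at 6.92, ranked second, behind a region inside Hadh (32.7 and 4.6), which encodes a dehydrogenase of fatty acid oxidation. The region inside Ucp3, at 4.33, ranked 27th. By fragments at the summit the ratios were 3.65 and 5.27, ranks 26 and 3, against a median of 1.5. These ranks describe 2 hearts and carry no test. The shared region at Ucp2, on the same stretch of chromosome 7, had a ratio of 1.07.

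**Figure D2:**
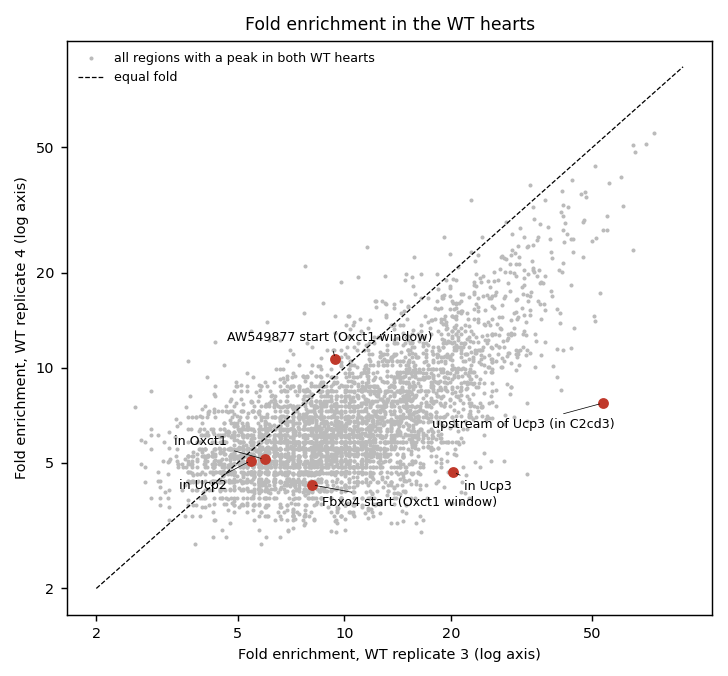
Fold enrichment in WT replicate 3 (x, log axis) against WT replicate 4 (y, log axis) for the 4342 regions with a peak in both hearts (grey) and the 6 of them in the members' windows (red), with a dashed line at equal fold. The region upstream of Ucp3 (53.5 and 7.74) and that inside Ucp3 (20.2 and 4.67) lie at the lower right edge, and the other 4 lie within the main cloud.

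Ucp2 encodes the most widely expressed of the 3 uncoupling proteins. Its shared region lay just inside the gene, on chromosome 7 from 100493608 to 100494127, with summits 435 and 396 bp after the start in WT replicates 3 and 4. The fold enrichments were 5.45 and 5.08 and the fragments 18 and 20. The hearts were thus nearly equal at this weak region, with a WT mean of 5.27 ± 0.261 (SD, n = 2), below the median of 7.81 over all shared regions. Ucp2 also had a peak of WT replicate 3 (7.46, 25 fragments) 37198 bp away, next to Coa4, which encodes a cytochrome oxidase assembly factor. This peak lay 50.4 kb from Ucp3, just outside the window of that gene.

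Ucp1 had 1 peak, in WT replicate 3 alone of the 4 lists, on chromosome 8 from 83332480 to 83332791. It lay 34145 bp from Ucp1 and 111 bp from Elmod2, which encodes a GTPase-activating protein, in the promoter window of the latter. Its fold enrichment of 3.93 came from 16 fragments, and 10.1% of the list had a lower fold. No heart had a peak inside Ucp1 or within 10 kb of it.

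Among the ketone genes, Oxct1 was the member with shared regions. Its product catalyses the step that commits acetoacetate to oxidation. The region nearest to the gene's start, on chromosome 15 from 4027149 to 4027783, had summits 948 and 913 bp after the start in WT replicates 3 and 4, with fold enrichments of 5.96 and 5.13 (5.55 ± 0.589, SD, n = 2) from 27 and 17 fragments. The summit of WT replicate 3 also lay in the promoter window of BC037032. The strongest shared region of the Oxct1 window lay 30563 bp before the gene, from 3995484 to 3996032, at the start of AW549877. It had fold enrichments of 9.43 and 10.7 (10.0 ± 0.868, SD, n = 2) from 52 and 36 fragments, and its summits lay 15 bp apart, in the capitals printed above. The third, from 3979194 to 3979735, lay at the start of Fbxo4, which encodes an F-box protein, 46882 bp before Oxct1 (8.09 and 4.26, from 31 and 21 fragments). The WT hearts differed by 1.9 times at this region and less at the others, and no edKO heart had a peak in any of the 3. The 17 and 21 fragments of WT replicate 4 near the Oxct1 start and at Fbxo4 were fewer than the 24 at the weakest summit called in edKO replicate 3. The 17 equalled the weakest of edKO replicate 4. The lists thus do not show whether weaker enrichment was present there in the edKO hearts.

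Oxct1 had 2 further peaks in WT replicate 3 without a partner in another heart. The peak at the start itself, from 4026347 to 4026580, had its summit 8 bp after the start (4.26, 19 fragments), and the peak before it had its summit 1128 bp before the start (8.52, 39 fragments). The 3 peaks of this heart nearest to the start had the same local background, 3.70 fragments per position, against 2.48 as the lowest of the list. The gene spans 128917 bp, and none of its peaks lay more than 948 bp inside it.

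Bdh1 had 3 peaks, all in WT replicate 3. That inside the gene, on chromosome 16 from 31429603 to 31429825, had its summit 979 bp after the second of the 2 listed starts, a fold enrichment of 5.45 and 18 fragments. This summit also lay in the promoter window of Gm15743. The other peaks of Bdh1 lay 35235 and 36665 bp beyond the far end of the gene, with fold enrichments of 4.47 and 6.10 from 20 and 22 fragments, and Bdh1 was their nearest protein-coding gene. Acat1 had 1 peak (6.36, 23 fragments), in WT replicate 3, on chromosome 9 from 53536710 to 53537186. It lay 43670 bp from Acat1 and 24 bp from Atm, in the promoter windows of Atm and Npat, which encode a DNA damage kinase and a histone gene coactivator. Of the 3 ketone enzyme genes, Oxct1 thus had regions in both WT hearts by this rule, and Bdh1 and Acat1 had peaks in 1 heart.

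Fgf21 encodes a fasting hormone. It had 1 peak, in WT replicate 3, inside Rasip1, an endothelial gene. The summit was 20218 bp before the Fgf21 start, on chromosome 7 from 45635577 to 45635791 (3.98, 14 fragments). In that heart 10.3% of the list had a lower fold. Just outside the window, 64.7 kb from Fgf21, a shared region lay inside Sec1 (5.32 and 8.75). Farther out, at 92.4 kb, the clock output gene Dbp held a much stronger shared region (51.1 and 25.8), which also had a peak in edKO replicate 4 (8.59). For Acat1 the nearest region outside the window lay inside Cul5 at 57.2 kb (16.7 and 10.4). The 14 and 16 fragments at the peaks of Fgf21 and Ucp1 are fewer than the 17 at the weakest summit called in edKO replicate 4. The peaks of Bdh1 (18, 20 and 22), Acat1 (23) and inside Ucp2 (18 and 20) had fewer than the 24 at the weakest summit of edKO replicate 3. The lists thus do not show whether weaker enrichment was present in the edKO hearts.

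**Figure D3:**
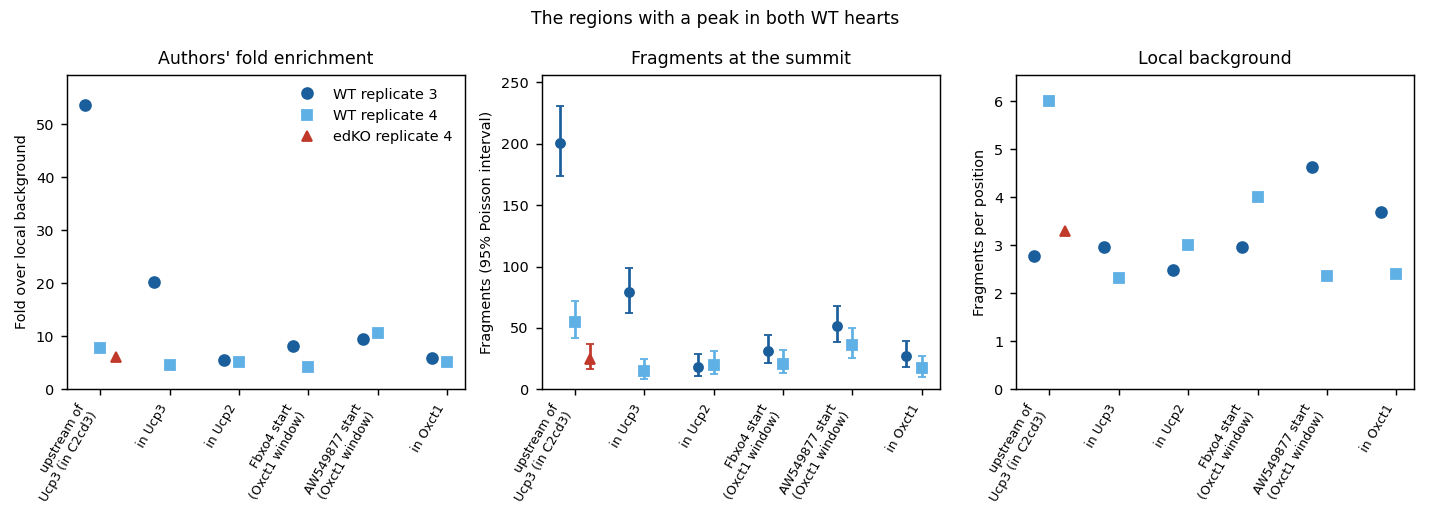
The 6 regions called in both WT hearts: the authors' fold enrichment (left), fragments at the summit with 95% Poisson intervals (middle) and local background in fragments per position (right), with a point for each heart that had a peak. WT replicate 3 has 201 and 79 fragments at the 2 Ucp3 regions, against 55 and 15 in WT replicate 4, and the intervals of these hearts overlap at the other 4 regions.

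The region upstream of Ucp3 was the members' region with a peak in an edKO heart. Its 6.04 lay near the median of 6.32 over the 127 peaks of edKO replicate 4. Of the 4342 shared regions, 125 had a peak in that heart. Those 125 regions had medians of 32.7 and 18.6 in WT replicates 3 and 4. At Ucp3 the WT replicate 3 value of 53.5 was above the first of these medians, and the WT replicate 4 value of 7.74 ranked 119th among the 125. Over the local background, the fold of WT replicate 3 was 8.86 times that of edKO replicate 4 and the fold of WT replicate 4 was 1.28 times it. The second ratio was larger on the other scales, at 2.49 over the lowest background of each list and 2.2 by fragments, while the first was 8.83 and 8.04. With 1 edKO value there is no test of this difference.

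By the rule for the most similar shared regions, the distance between log2 fold enrichments over the 2 WT hearts, the regions most like that upstream of Ucp3 were nearest to Cd34 (40.8 and 8.52), Nox3 (39.6 and 9.35) and Lpin1 (38.8 and 10.1). They lay 52884, 477993 and 350079 bp from those genes. Their local background in WT replicate 4 was 4.0, 5.0 and 3.40 fragments per position, each above the median of 2.60. The fold enrichment that picked these regions is a ratio to this background, so the values are not independent of the choice.

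Other genes of the same biology were taken from a list of 27, all in the annotation. A shared region lay within 50 kb of 14 of them (51.9%, against 32.4% of all protein-coding genes). A peak of WT replicate 3 lay within 50 kb of 21 of the 27, and of 64.5% of all protein-coding genes. Shared regions were found for 3 of 5 further genes of ketone and acetoacetyl-CoA use, 4 of 5 genes of monocarboxylate transport, 2 of 5 mitochondrial carriers and 5 of 7 Fgf21 receptor genes and relatives, and not for the ketone receptor gene Hcar2. Acat2 and Acat3, of ketone and acetoacetyl-CoA use, are neighbours on chromosome 17. The 1 shared region of Acat3 also counted for Acat2, which had 3. The strongest region of each monocarboxylate transport gene was nearest to that gene. For each gene of ketone and acetoacetyl-CoA use it was nearest to another gene. The same held for the Fgf21 receptor genes and relatives other than Fgfr2.

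The highest of these by the mean of both WT hearts was at Slc25a4, which encodes the adenine nucleotide carrier of heart and muscle. Its region lay 5965 bp from the gene, and had values of 36.7 and 19.6 in WT replicates 3 and 4. Slc25a4 was also the gene of this list with a peak in an edKO list within 50 kb. Slc16a1, the gene of the monocarboxylate transporter that takes up ketone bodies and lactate, had a region 38962 bp away (17.6 and 14.2). Bsg, the gene of the chaperone of that transporter, had a region 2832 bp away (15.2 and 10.6). For Acat2, a cytosolic thiolase gene (20.1 and 12.4), and Fgfr3, a fibroblast growth factor receptor gene (17.2 and 11.9), the regions lay nearer to other genes, Wtap and Letm1. WT replicate 3 had the higher value in each of these 5.

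**Figure D4:**
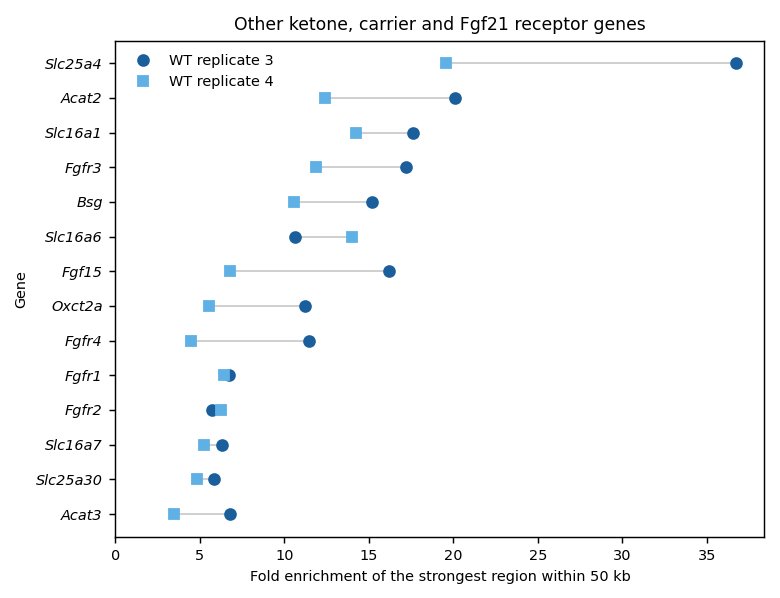
Fold enrichment of the strongest shared region within 50 kb of the 14 listed genes that had one (y axis), in WT replicate 3 and WT replicate 4 (x axis, linear from 0). Slc25a4 is highest in both hearts (36.7 and 19.6), and Slc16a6 (10.6 and 14.0) and Fgfr2 (5.74 and 6.27) are the genes with the higher value in WT replicate 4.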

How the data were processed

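RXR ChIP-seq was made from 4 hearts, with 4 immunoprecipitates and 4 inputs. Per the submitters' processing notes, cutadapt, BWA, SAMtools and MACS3 were used on mm10 (GRCm38). Versions and settings, including the treatment of duplicates, were not given in the sources used here. Per the labels, each heart has 1 peak list. The deposited lists give, per peak, the authors' fold enrichment (a ratio to the local background), −log10 p and −log10 q, and an integer score that was not used. Positions are printed 1-based.

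Fragments and background were solved from the fold (pseudocount 1) and the −log10 p under a Poisson upper tail. A whole number within 0.02 resulted for 19121 of 19129 peaks in WT replicate 3, and for all peaks of the other lists and all members. The immunoprecipitate was scaled by 0.967 in WT replicate 4 and 0.992 in edKO replicate 3. The solver was tested on simulated data.

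Peaks of the WT hearts overlapping by at least 1 bp formed a region, placed by the summit of WT replicate 3. Genes came from RefSeq (GRCm38.p6, 21887 protein-coding). A genome sequence was not used here, so motifs were searched in promoter windows. The named genes were the 7 members, the genes nearest to their regions, the 5 highest genes of the list of 27 and the 3 most similar regions. A group of genes in that list is counted in its totals and otherwise not reported here. Members and lists were chosen with earlier results of these data known. Analyses used Python 3.11.15, NumPy 2.4.6, pandas 2.3.3 and SciPy 1.17.1.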

Additional observations from a re-analysis of the deposited data

How the results depend on the processing

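By count, WT hearts kept more peaks than edKO hearts near the 7 genes under each alternative tried. The difference was 11 peaks per heart as reported and 5.50 to 16.5 when any 1 heart was left out, the low value being without WT replicate 3. None of these designs can give a small exact p. None adjusts for the length of the lists, 19129 and 4697 peaks in WT against 8 and 127 in edKO. Per 1000 peaks of a list the direction was not kept, with 0.889 and 1.28 in WT against 0 and 7.87 in edKO. With the heart numbers as a replicate block the difference was 11 (two-sided exact sign-flip p = 0.5, the smallest that 2 pairs allow). The labels do not say that the numbers pair the hearts.

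The count of members with a shared region stayed at 3 except at a window of 100 kb, where it was 5, and ranged from 3 to 7 when 1 WT heart was left out and the other heart's peaks were counted alone. The 6 shared regions became 10 at 100 kb and 3 when a region counted for its nearest protein-coding gene. The 14 other genes became 6 at 10 kb and 7 with the nearest gene. These changes follow from how the alternatives assign regions to genes. The share over all protein-coding genes is given here for the window of 50 kb alone. The counts at other settings thus have no such share beside them. Bdh1, Ucp1, Acat1 and Fgf21 rest on WT replicate 3: without it none has a peak within 50 kb. The fold ratio of the WT hearts upstream of Ucp3, 6.92, was 3.55 over the lowest background of each list and 3.65 by fragments, both chosen after seeing the data. On the same scales the ratio of WT replicate 4 to edKO replicate 4 there moved from 1.28 to 2.49 and 2.2. The search for inexact DR1 and DR4 matches was also added then.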
